A study of Mus musculus with 4 samples.

Results

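The nuclei described here were deep cortical excitatory neurons that carried transcripts of Foxp2, a forkhead transcription factor, together with partner genes such as Col5a1, a fibrillar collagen chain. A barcode was a member when it had at least 500 detected genes, at least 2 unique molecular identifiers (UMIs) of Foxp2, at least 1 UMI each of at least 3 of the 7 partner genes Col5a1, Rai14, Sulf1, Hs3st2, Arhgap25, Cobll1 and Lpar1, at least 1 UMI of the vesicular glutamate transporter gene Slc17a7, and at most 1 UMI of the GABA synthesis genes Gad1 and Gad2 together. Of 60288 barcodes in 4 libraries, 59750 had at least 500 genes and 1326 were members. The members were chosen by measured values, so the levels of these genes describe the choice and support nothing.

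The study measured nuclear RNA of mouse hippocampus by droplet single-nucleus sequencing. It compared mice lacking monoacylglycerol lipase (MAGL, gene Mgll), a serine hydrolase of the endocannabinoid 2-arachidonoylglycerol, with wild-type mice. The 4 genotypes were WT, Total/global MAGL-KO, Astrocyte specific MAGL-KO and Neuron specific MAGL-KO, with 1 library each, called below the wild-type, tKO-labelled, aKO-labelled and nKO-labelled libraries after their sample titles. Strain, age, sex, the Cre driver of the cell-restricted lines, the deleted part of Mgll and the number of animals behind a library were not given in the sources used here. Sets of 4 values follow the order wild type, tKO, aKO, nKO. With 1 library per genotype there was no replicate check and no test of genotype, and the 3 knockout libraries were set against the same wild-type library.

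In the neocortex, FOXP2 marks glutamatergic neurons of the deepest layers, above all the layer 6 corticothalamic neurons, which send axons to the thalamus and gate the sensory flow to the cortex. Neurons of layer 6b, a remnant of the embryonic subplate, lie directly beneath them. In the forebrain, 2-arachidonoylglycerol is made on demand in postsynaptic neurons and acts backwards on presynaptic CB1 receptors, encoded by Cnr1, until MAGL hydrolyses it.

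The wild-type library held 326 members, the tKO-labelled library 621, the aKO-labelled library 149 and the nKO-labelled library 230. Their summed UMIs ranged from 1286763 in the aKO-labelled to 5316807 in the tKO-labelled library. Median UMIs per member were 10612, 7680, 7588 and 9338.5, so the wild-type and nKO-labelled members were read more deeply than the others. The tKO-labelled library stood apart in size, with 31243 of the barcodes, and in doublets: Scrublet, which scores barcodes by their likeness to simulated mixtures, called 31.6% of its members against 8.28%, 11.4% and 4.78% in the wild-type, aKO-labelled and nKO-labelled libraries. The same calls took 3.67%, 23.2%, 6.08% and 2.03% of all barcodes with at least 500 genes and 3.69%, 25.4%, 6.83% and 2.01% of the other excitatory nuclei, those that met the same transmitter criteria without being members, so the share was higher among the members in every library. In the tKO-labelled library 577 of the 621 members had Y-linked UMIs without Xist, and none had Xist UMIs without Y-linked ones. The other libraries had 121, 71 and 106 members of the first kind and 171, 57 and 98 of the second, so the mix of sexes differed between libraries. Between 108 and 466 barcodes were shared by a pair of libraries, and 1 barcode was a member in both libraries of a pair. The main values include all members, and the closing section gives the counts of genes that differed without the called doublets and with male nuclei only.

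The label was checked against marker genes over the summed UMIs of the members and of the 31804 other excitatory nuclei. The latter include the nuclei just outside the limits of the rule. Of these other excitatory nuclei, 8.85%, 11.1%, 6.88% and 8.33% had a Foxp2 UMI. Levels are CPM, a gene's summed UMIs scaled to a common total of all summed UMIs. Of 10 layer 6 corticothalamic genes, 9 were higher in the members in all 4 libraries and 7 of these were at least 2-fold higher in each. Over the 9554 genes with at least 100 UMIs in the members, 30.0% were higher in all 4 libraries and 21.4% lower, 2.25% at least 2-fold higher and 2.12% at least 2-fold lower. The choice of members made this contrast, so nothing is read from these shares. The list counts below include genes with fewer UMIs, which the shares do not cover. All these counts used ratios with 1 UMI added to each sum. That raises the smaller member sums most, so genes with few UMIs lean to higher. Hs3st4, a heparan sulphate 3-O-sulphotransferase, stood at 2815, 2443, 3336 and 2858 CPM in the members and at 734, 766, 1019 and 800 CPM in the other excitatory nuclei. Tle4, a corepressor of layer 6 neurons, was at 534, 448, 525 and 503 CPM against 143, 139, 115 and 125. In both cases the lowest member value lay above the highest comparison value. Syt6, a synaptotagmin, was at 22.5, 39.3, 39.6 and 29.8 CPM in the members and between 1.39 and 4.53 CPM in the other excitatory nuclei. Tbr1, a T-box factor of layer 6, was at 36.2, 28.6, 25.6 and 31.5 CPM against 7.20 to 9.65. Crym, a thyroid hormone binding protein gene, was the exception in that list, at 61.4, 51.2, 61.4 and 51.5 CPM against 51.6, 48.6, 59.8 and 54.8. Ntsr1, whose promoter drives a widely used corticothalamic Cre line, was low everywhere, at 5.44 to 9.03 CPM in the members.

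Most hippocampal field markers on the lists were lower. All 6 dentate granule genes and all 5 CA2 and CA3 genes were lower in the members in every library, as were 3 of 4 CA1 genes, each of the 3 by at least 2-fold. Those 3 CA1 genes had only 38 to 69 UMIs in the members, and 3 of the 6 dentate genes had at least 100. Prox1, the homeobox gene of granule cells, was at 5.09, 10.3, 9.33 and 10.7 CPM in the members against 62.8 to 72.5. The fourth CA1 gene, Mpped1, was higher in the members, at 180.0 to 203.7 CPM against 89.4 to 102.4. Cux2, a homeobox gene of the upper cortical layers, was at 6.43, 21.6, 3.89 and 9.32 CPM against 34.0 to 54.8, while Rorb, a nuclear receptor most known from layer 4, was higher in the members at 98.4, 83.9, 174.9 and 114.1 CPM against 25.9 to 45.03. Of the 4 layer 6b genes listed, Nxph4, Cplx3 and Ccn2 were higher in all libraries and Moxd1 was not. The tissue was labelled hippocampus, while the listed genes that were higher in these nuclei included 9 of the 10 layer 6 corticothalamic genes.

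Markers of other cell classes were mixed. The summed level of 5 inhibitory genes was 8.04, 27.3, 25.6 and 10.2 CPM in the members against 19.9, 39.55, 22.6 and 27.1 CPM in the other excitatory nuclei, lower in 3 libraries and higher in the aKO-labelled one, and Slc32a1, the vesicular GABA transporter gene, had no UMI in the wild-type members. The summed level of 5 astrocyte genes was 10.5, 15.1, 6.22 and 7.99 CPM against 21.0 to 28.9, with the water channel gene Aqp4 at 0 in the aKO-labelled members and the connexin gene Gja1 at 0 in the tKO-labelled and nKO-labelled members. The microglial gene P2ry12 was at 17.96, 12.2, 22.5 and 12.4 CPM against 22.7, 14.2, 22.8 and 17.8, nearly equal in the aKO-labelled library and lower in the members of the others. Another microglial gene, Cx3cr1, was higher in the members of 2 libraries, at 10.45, 9.03, 4.66 and 5.77 CPM against 8.81, 6.48, 5.90 and 5.83. Csf1r, the receptor gene for colony stimulating factor, was at 2.68, 1.69, 0.777 and 0.444 CPM against 0.979, 1.28, 0.460 and 0.402. It was higher in the members of the first 2 libraries. The last 2 member values were 1 UMI each, too few to compare. The complement gene C1qa was higher in the first 2 libraries, at 2.41 and 1.88 CPM against 1.47 and 1.02, and was at 0 and 0.444 CPM against 0.428 and 0.497 in the others. The 3 choroid plexus genes summed to 314.2, 115.1, 48.96 and 6.66 CPM in the members against 62.97, 43.9, 18.6 and 11.7 CPM, higher in the members of the first 3 libraries. The 4 thalamic genes summed to 14.2, 29.2, 14.8 and 5.77 CPM against 25.9 to 47.4. The inhibitory and thalamic sums were both highest in the tKO-labelled members. Of 4 subiculum genes 2 were lower in every library, among them Fn1 at 7.55 to 14.8 CPM against 20.3 to 29.7, and Tpbg was at least 2-fold higher, at 7.51, 5.45, 5.44 and 10.2 CPM against 1.97 to 2.16. Of 4 layer 5 genes, Pou3f1 and Bcl6, with 73 and 78 UMIs in the members, were at least 2-fold lower in every library and Parm1 was higher in every library, at 137.8, 117.4, 125.9 and 131.0 CPM against 69.1 to 91.5. The 3 near-projecting genes summed to 534.0, 478.3, 556.4 and 809.5 CPM against 493.3, 591.8, 424.5 and 567.8 CPM, higher in the members of 3 libraries, with Lypd1 at least 2-fold lower in all 4. Of 5 genes of layer 6 intratelencephalic or claustral neurons 2 were higher in every library, among them Nr4a2 at least 2-fold, and 2 lower, among them Ntng2 at least 2-fold. Medium spiny neurons of the striatum also transcribe Foxp2, and of 6 of their genes 3 (Drd1, Ppp1r1b and Rgs9) were higher than in the other excitatory nuclei in 3 or 4 libraries, with Drd1 at 6.43, 11.9, 12.4 and 14.7 CPM against 1.62 to 2.61, while Drd2 had no UMI in 3 of the libraries.

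Shares of nuclei with a transcript gave the same picture beside the other excitatory nuclei at equal depth. After each nucleus was thinned to 2000 UMIs, Tle4 was detected in 60.7%, 58.3%, 58.4% and 60.0% of members and in 17.2% to 23.0% of other excitatory nuclei. As background, 11.5% to 16.4% of inhibitory and 14.1% to 20.6% of oligodendrocyte nuclei also had a Tle4 UMI. Whether those UMIs came from free RNA or from the nuclei was not tested. Without thinning, Tle4 was found in 94.2%, 92.8%, 92.6% and 93.9% of members and in 45.6% to 57.7% of other excitatory nuclei. The thinned share for Hs3st4 was 97.3% to 97.9% in members, 38.5% to 47.7% in other excitatory nuclei, 4.11% to 16.3% in inhibitory nuclei and 1.41% to 14.8% in oligodendrocyte nuclei. In upper-layer nuclei, those of the other excitatory nuclei with at least 2 Rorb and 1 Cux2 UMIs, it was 57.6%, 50.2%, 63.0% and 62.1%, between the members and the other excitatory nuclei as a whole, while the Tle4 share there was 6.32% to 14.4%. The thinned share for Syt6 was 4.6%, 8.53%, 3.36% and 6.52% in members and 0.275% to 0.806% in other excitatory nuclei. In inhibitory nuclei it was 5.57%, 7.97%, 4.62% and 5.88%, so by Syt6 the members did not stand apart from those. Median depths of the inhibitory nuclei were 6082 to 9521 UMIs, and those of the oligodendrocyte nuclei 1377 to 2088 UMIs, so many of the latter were too shallow to be thinned.

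**Figure D1:**
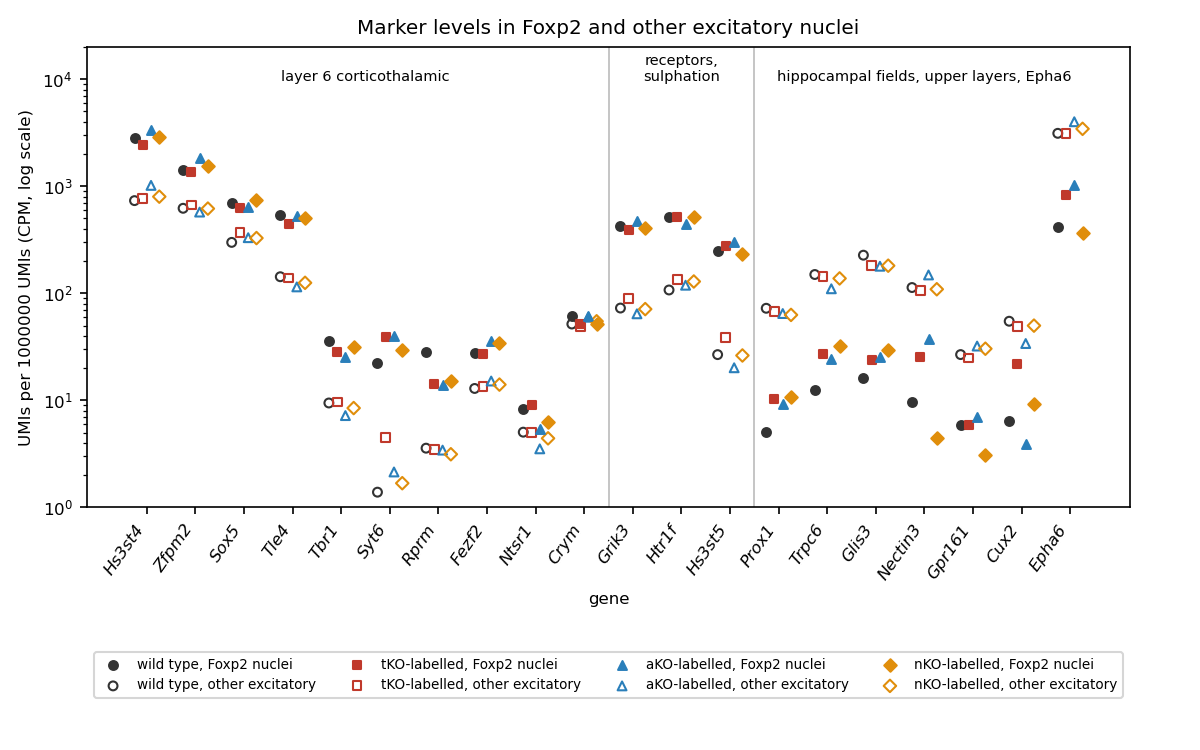
Summed level of 20 genes (CPM, log axis) in the Foxp2 members (filled) and the other excitatory nuclei (open) of each of the 4 libraries, without error bars. Hs3st4, Tle4 and Syt6 lie higher in the members of every library, and Prox1, Trpc6 and Epha6 lie lower.

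The limits of the rule were set against the nuclei on either side of them. Of the members, 342 had exactly 2 Foxp2 UMIs, and 458 nuclei that met the other criteria had only 1. Tle4 was at 447.5, 419.2, 445.3 and 450.6 CPM just inside this limit and at 421.5, 411.3, 438.9 and 409 CPM just outside it. The upper-layer gene Cux2 was at 4.86, 30.2, 3.35 and 5.16 CPM inside it and at 15.3, 16.9, 18.5 and 25.9 CPM outside. The values inside came from 75, 165, 38 and 64 nuclei. All but the tKO-labelled value inside rest on few UMIs, so no direction is read from them. By partner genes, 519 members had exactly 3 and 446 excluded nuclei had 2. Zfpm2, a zinc finger gene of the layer 6 list, was at 1381, 1435, 1872 and 1462 CPM with 3 partner genes and at 1197, 1198, 1199 and 1069 CPM with 2, lower outside in every library. Sox5, of the same list, was at 820.5, 625.1, 703.5 and 998.7 CPM with 3 and at 764.5, 676.2, 840.8 and 1007 CPM with 2. It was thus higher outside in all but the wild-type library. Tle4 and Hs3st4 were lower outside in all but the nKO-labelled library, where both were higher outside.

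The members' share of barcodes depended on depth. Members made up 3.504% of wild-type barcodes with at least 500 genes (exact 95% interval 3.14 to 3.90), 2.01% of tKO-labelled (1.85 to 2.17), 1.40% of aKO-labelled (1.18 to 1.64) and 2.60% of nKO-labelled barcodes (2.28 to 2.95). Intervals here and below cover counting error only. When every barcode with at least 3000 UMIs was thinned to that depth before the rule was applied, 27, 112, 22 and 26 members were left. Their shares of the 8318, 24749, 10120 and 8100 barcodes kept were 0.325%, 0.453%, 0.217% and 0.321%. Shallower barcodes, 986, 6180, 544 and 753 in number, were left out, so these shares have another base than those at full depth. The order of the wild-type and tKO-labelled libraries turned round with thinning, and the thinned intervals of those libraries overlapped. The aKO-labelled library had the lowest share both ways. The cluster of nuclei that held most members had 6.32%, 6.62%, 4.14% and 6.16% of the nuclei kept after doublet removal. This share was again lowest in the aKO-labelled library (interval 3.76 to 4.55). The genes of the rule were not left out of that clustering, and Arhgap25, Rai14 and Sulf1 were among the cluster's leading genes. Its share is therefore not independent of the rule. Whether a smaller share reflects the tissue taken, the nuclei recovered or the genotype cannot be told apart.

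**Figure D2:**
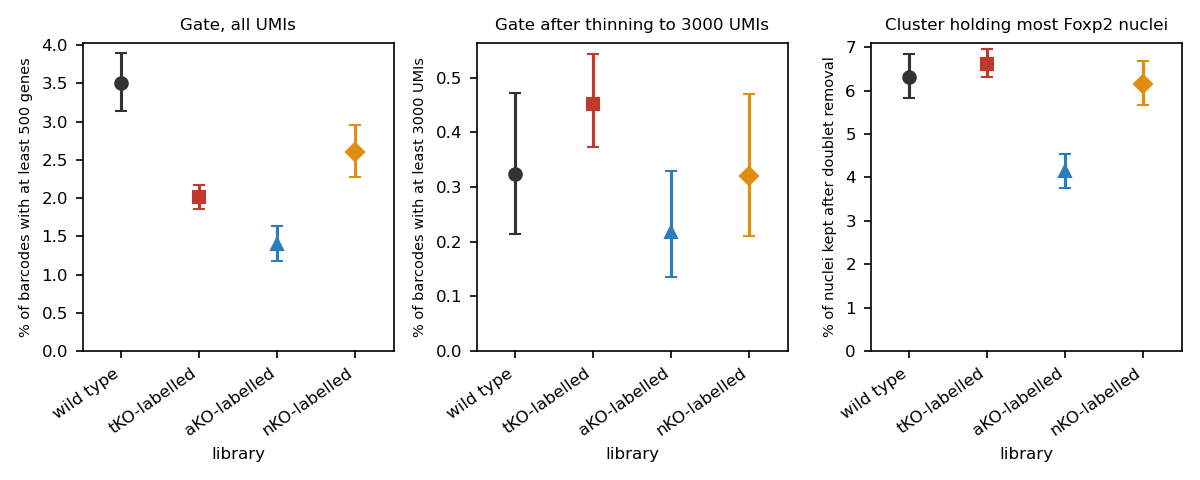
Share of each library (percent, with exact 95% intervals for counting error) passing the rule at full depth, passing it after thinning to 3000 UMIs, and falling in the cluster that held most members. The thinned share is of barcodes with at least 3000 UMIs only. Axes differ between panels. The wild-type library is highest only at full depth, and the aKO-labelled library is lowest in all 3 panels.

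Clustering of 51372 nuclei left after removal of called doublets, with the genes of the rule not left out, gave 42 clusters. Of the 1075 members among them, 974 (90.6%) fell in a single cluster of 3086 nuclei, of which members were 31.6%. Most nuclei of that cluster did not pass the rule, and 101 members lay elsewhere. Of these, 50 were in a cluster led by Gm47902, Ly6g6e and Hmga2, and 16 in a cluster led by Arhgap6, Col12a1 and Foxp2 itself. Members were found in 17 of the 42 clusters.

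Clustered alone without the genes of the rule, the members left after removal of called doublets (299, 425, 132 and 219 in the 4 libraries, to which all subset shares refer) divided into 10 subsets of 29 to 218 nuclei, numbered 0 to 9. The subsets are descriptions made from the same counts, and their leading genes are no test. Subset 4 (218 nuclei), led by Dkk2 and with the homeobox gene Meis2 at 941 CPM, held 26.1%, 16.7%, 10.6% and 25.1% of each library's members. Subset 8 (204 nuclei) was led by Mctp2 and held 22.7%, 16.7%, 22.0% and 16.4%. Subset 6 (153 nuclei), with Rorb at 343 CPM and the phosphodiesterase gene Pde1c at 190.0 CPM, held 13.4%, 11.5%, 24.2% and 14.6%. Subset 3 (124 nuclei) was led by Spag16 and held 10.7%, 15.5%, 9.09% and 6.39%. The interval of subset 4 in the wild-type library (21.2 to 31.5) lay above those of the tKO-labelled (13.3 to 20.6) and aKO-labelled (5.92 to 17.2) libraries, while for subset 6 the wild-type interval (9.73 to 17.8) touched that of the aKO-labelled library (17.2 to 32.5). The median depths of the members differed between libraries as given above, and their part in these shares was not tested.

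Subset 7 (79 nuclei) carried the layer 6b genes: Ccn2 at 150.4, Nxph4 at 30.6, Cplx3 at 23.96 and Moxd1 at 34.6 CPM. It held 7.02%, 6.59%, 9.85% and 7.76% of the members, with intervals that overlapped. Subset 2 (46 nuclei) had Tshz2, a gene of near-projecting neurons, at 2275 CPM and the potassium channel gene Kcnh8 at 430.3 CPM, and 45 of its nuclei lay outside the main cluster. Subset 1 (29 nuclei) also had high Tshz2, at 2583 CPM, and low Zfpm2, at 133.6 CPM. Subset 0 (47 nuclei) had the highest median depth of the 10, 17164 UMIs, the highest median doublet score, 0.158, and more of the granule cell genes Prox1 (26.2 CPM) and Trpc6 (60.2 CPM) than the other subsets.

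Subset 5 and subset 9 had the highest Foxp2 and Syt6 levels. Subset 5 (95 nuclei), led by Ccn1, Arc and Egr3, had Homer1 at 3196 CPM, Syt6 at 157.2 CPM and Foxp2 at 1016 CPM, and held 8.03%, 8.47%, 7.58% and 11.4% of the members. Subset 9 (80 nuclei), led by the long noncoding RNA Gm10635, the carboxypeptidase gene Cpa6 and the adhesion gene Sdk1, had Syt6 at 152.4 CPM and Foxp2 at 1067 CPM. Of its nuclei, 77 came from the tKO-labelled library, 18.1% of the 425 members of that library left after removal of called doublets, against 0.669% in the wild-type and 0.758% in the aKO-labelled library. None of 219 nKO-labelled members fell in it, which allows a share of up to 1.37% by a floor of 3 counts and of up to 1.67% by the exact 95% interval. A group of nuclei from almost a single library may be a property of that library and not a cell type, and its median doublet score was 0.0886.

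**Figure D3:**
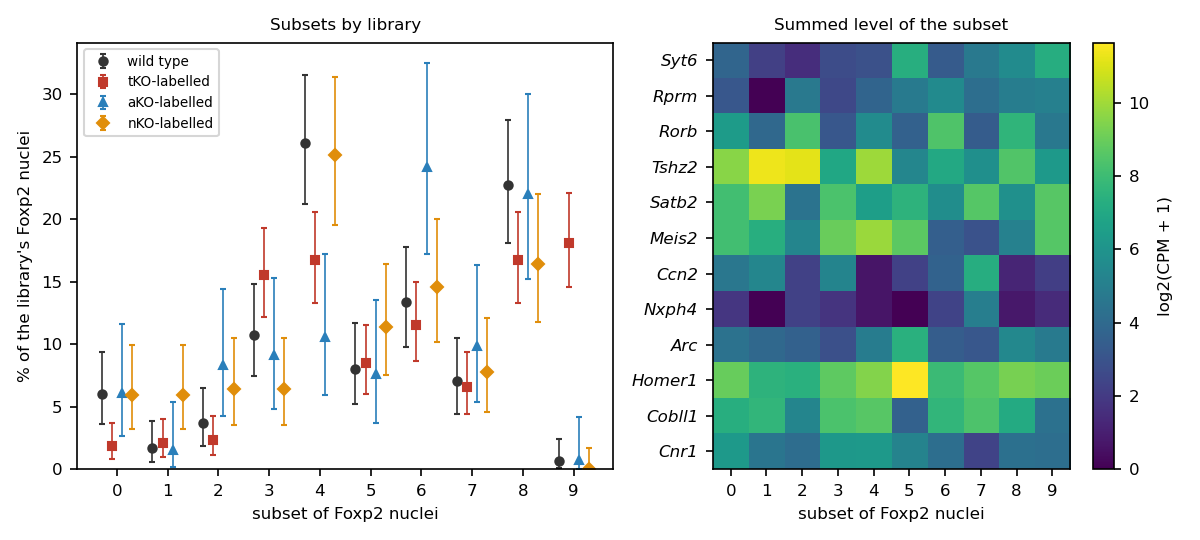
Left, percent of each library's members in subsets 0 to 9, with exact 95% intervals for counting error; right, summed level of 12 genes in each subset as log2 of CPM plus 1. Subset 9 is at 18.1% in the tKO-labelled library and under 1% in the others; subset 7 shows Ccn2 and Nxph4, and subset 5 shows Arc and Homer1.

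Beyond the layer markers, the genes outside the rule whose lowest member to other excitatory ratio over the 4 libraries was highest were headed by Myocd, a muscle transcription coactivator (15.3, 19.2, 28.8 and 25.3 CPM against 1.18 to 1.61), and Ror2, a Wnt receptor kinase (45.04, 32.0, 27.2 and 47.1 CPM against 1.37 to 3.03). The cadherin gene Cdh18 had 2534, 2585, 1892 and 2512 CPM in the members and 188 to 359 CPM in the other excitatory nuclei. Cntnap4, a neurexin-like adhesion gene, had 565, 514, 716 and 557 CPM against 55.7 to 81.9. Its antisense transcript Gm45904 was also among the leading genes, and since strand use in counting was not given, reads of the pair may not have been kept apart. The bombesin-type receptor gene Nmbr, the collagen gene Col8a1 and the semaphorin gene Sema3c were among the 20 as well. Col8a1 was also high in the upper-layer nuclei, at 33.9, 30.8, 10.1 and 59.5 CPM beside 53.4, 43.5, 46.6 and 28.0 CPM in the members. These ratios follow from the choice of members and are given as a description.

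Receptor genes on the lists were both higher and lower in the members than in other excitatory nuclei. Among 17 ionotropic glutamate receptor genes, 8 were higher and 8 lower in all 4 libraries. Beside the list counts here and below, 30.0% of the 9554 genes with at least 100 UMIs were higher and 21.4% lower in all 4 libraries. The kainate receptor gene Grik3 was at 426, 391, 471 and 404 CPM against 64.3 to 88.9. The AMPA receptor gene Gria1, abundant in hippocampal pyramidal cells, was lower, at 620, 878, 1045 and 702 CPM against 1974 to 2618. Of the metabotropic genes, Grm3 was at 694, 741, 466 and 745 CPM against 98.1 to 223.8, and Grm8 at 1164, 1089, 1275 and 1127 CPM against 282.6 to 426.5. Both encode receptors that couple to Gi proteins. Of 12 GABA-A receptor genes, 7 were lower and 3 higher, with Gabra2 at 135, 249, 206 and 194 CPM against 550 to 761.

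Of 32 genes for neuromodulator receptors, 19 were higher in all 4 libraries, 9 of them at least 2-fold, and 7 were lower. Only 18 of the 32 had at least 100 UMIs, and of these 12 were higher and 5 lower. The serotonin receptor gene Htr1f was at 513, 517, 444 and 519 CPM against 107.4 to 134.8. The orexin receptor gene Hcrtr2 was at 34.3, 25.6, 50.5 and 42.6 CPM against 13.1 to 16.8. The nicotinic receptor gene Chrna5, which in cortex is known from layer 6, was at 12.9, 10.5, 19.4 and 13.8 CPM against 4.36 to 5.84. The somatostatin receptor gene Sstr2 was at 23.3, 17.1, 20.2 and 18.2 CPM against 6.84 to 7.32. Htr4 went the other way, at 34.8 to 70.7 CPM against 156.5 to 170.4.

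Genes of heparan sulphate, the sulphated sugar chain that binds growth factors and guidance cues, differed in direction. Of 28 listed genes found in the files, 12 were higher and 10 lower in all 4 libraries, and 2 of the 28, Hs3st2 and Sulf1, belonged to the rule. Hs3st5 joined Hs3st4 among the 3-O-sulphotransferases that were higher, at 249, 278, 304 and 235 CPM against 20.1 to 38.8. The 6-O-sulphotransferase gene Hs6st3 was lower, at 400, 732, 537 and 483 CPM against 2124 to 2485, whereas Hs6st2 was higher, at 157.8 to 223.0 CPM against 80.5 to 109.2. The glypican core protein genes Gpc4 and Gpc5 were lower, Gpc5 at 69.7 to 92.7 CPM against 308.6 to 359.2. Of 30 axon guidance genes, 17 were lower and 7 higher in all 4 libraries, beside 21.4% and 30.0% of the 9554 genes with at least 100 UMIs. The secreted semaphorin genes Sema3a (46.6 to 51.5 CPM against 11.8 to 23.8) and Sema3c were higher, and the receptor gene Epha6 was lower, at 418, 826, 1034 and 368 CPM against 3089 to 4006. Among voltage-gated potassium channel genes 11 of 17 were lower in all 4 libraries (beside the same 21.4%), with Kcnb2 at 306 to 463 CPM against 937 to 1061.

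The targeted gene, Mgll, was detected at 125.5, 94.2, 117.3 and 130.1 CPM in the members. The log2 ratios to wild type were -0.41, -0.09 and 0.05 in the tKO, aKO and nKO order, with counting intervals of -0.60 to -0.23, -0.37 to 0.17 and -0.16 to 0.27. The tKO-labelled members were the lowest, yet no library lacked the transcript. In the other excitatory nuclei Mgll was at 101.2, 78.0, 106.3 and 105.4 CPM, with the same library lowest. Since the deleted part of the gene was not given, reads from the rest of the gene may remain, and these levels do not check the labels.

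Of the 14 endocannabinoid genes found in the files, 9 were lower in the members than in the other excitatory nuclei in all 4 libraries, and 2, Mgll and Plcb4, were higher. Cnr1 was at 48.8, 44.6, 48.2 and 38.2 CPM against 52.2 to 63.7. Faah, the hydrolase of anandamide, was at 49.3, 63.0, 69.9 and 58.2 CPM against 105.9 to 120.3, and Napepld, an anandamide synthesis gene, at 11.1 to 17.8 CPM against 30.5 to 44.6. Plcb4, a phospholipase C that acts downstream of Gq-coupled receptors, was the gene at least 2-fold higher, at 105.6, 112.5, 122.8 and 95.5 CPM against 27.5 to 41.8. Dagla, the main neuronal synthase of 2-arachidonoylglycerol, was at 65.7, 64.0, 76.2 and 66.6 CPM in the members. By subset, Cnr1 was at 76.0, 72.9 and 78.7 CPM in subsets 0, 3 and 4, and at 3.99 CPM in the layer 6b-like subset 7. The subsets were made from the same counts with Cnr1 not left out, so this spread is a description. Cnr2 was not listed under that symbol in the files.

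**Figure D4:**
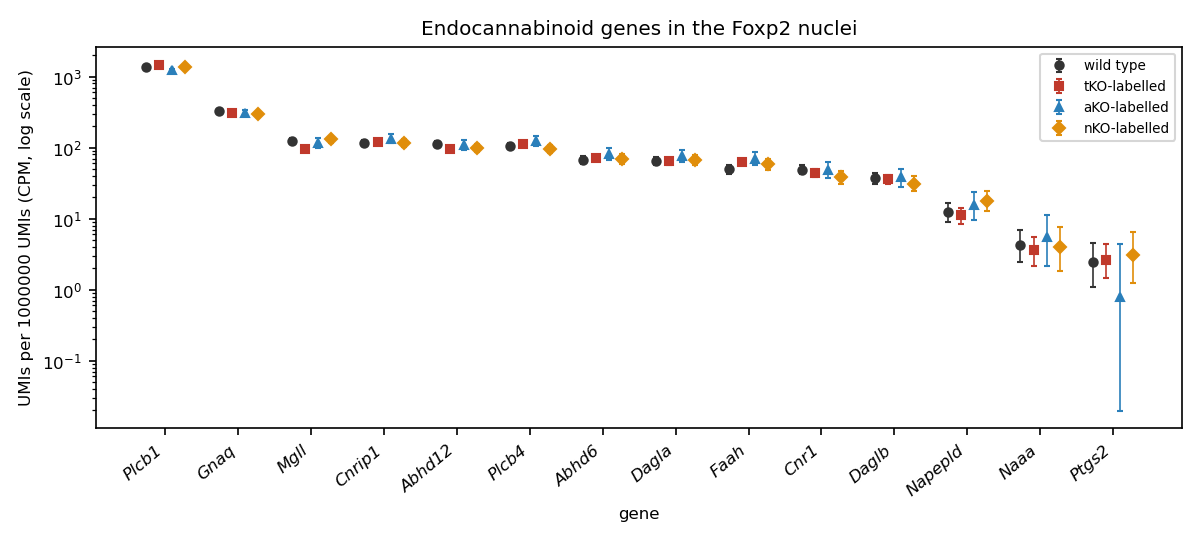
Level of 14 endocannabinoid genes in the members of each library (CPM, log axis, exact 95% Poisson intervals for counting error). Mgll is at 94.2 CPM in the tKO-labelled library and between 117.3 and 130.1 CPM in the others, and no gene with at least 100 UMIs differs by 2-fold from wild type.

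For ratios to wild type, 9554 of 20211 genes had at least 100 UMIs over the members of the 4 libraries. A gene was counted as different when its ratio, with 1 UMI added to each sum, reached 2-fold. Against wild type, 70 genes (0.733%) were higher and 44 (0.461%) lower in the tKO-labelled members, 96 (1.0%) higher and 149 (1.56%) lower in the aKO-labelled members, and 34 (0.356%) higher and 88 (0.921%) lower in the nKO-labelled members. The knockout libraries differed from each other by as much: 241 genes (2.52%) between tKO and aKO, 156 (1.63%) between tKO and nKO, and 263 (2.75%) between aKO and nKO passed 2-fold in either direction. The counts were highest where the library with the fewest members entered. None of 12 endocannabinoid genes with enough UMIs passed 2-fold in any knockout library, and the medians of that list were -0.04, 0.14 and 0.00 on the log2 scale beside -0.04, -0.01 and -0.02 over all genes. Without the called doublets the tKO-labelled count was 71 in place of 114 and the nKO-labelled count 77 in place of 122, over 8532 genes in place of 9554.

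The levels of immediate early genes, which neurons transcribe within minutes of synaptic activity, differed between the libraries. Of 19 listed genes, 14 had at least 100 UMIs. In the aKO-labelled members 8 of the 14 were at least 2-fold lower than in wild type (beside 1.56% of all genes) and 13 lay below it, with a median log2 ratio of -1.04, where 4879 of all 9554 genes lay below wild type. In the nKO-labelled members 13 of the 14 lay above wild type with a median of 0.45, where 4510 of all 9554 genes lay above it, and 1 gene, Npas4, was 2-fold higher (beside 0.356% of all genes). In the tKO-labelled members no gene of the list passed 2-fold and the median was 0.01.

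Arc, whose product controls AMPA receptor traffic, was at 30.8, 31.0, 11.7 and 53.3 CPM. Egr3, a zinc finger factor, was at 21.98, 26.5, 6.22 and 41.7 CPM. Npas4, a factor induced by calcium entry, was at 14.5, 23.1, 3.89 and 29.3 CPM. For these 3 genes the nKO-labelled library was highest and the aKO-labelled library lowest. Fos, the AP-1 subunit, had 54, 56, 2 and 40 UMIs, or 14.5, 10.5, 1.55 and 17.8 CPM, and its log2 ratio in the aKO-labelled members was -2.66 with a counting interval of -6.30 to -1.30. The AP-1 partner Junb was at 38.6, 31.2, 14.0 and 54.6 CPM, and the phosphatase gene Dusp1 at 9.12, 12.04, 3.89 and 11.1 CPM. Egr3, Npas4 and Dusp1 also had few UMIs in the aKO-labelled members, so their ratios there carry wide counting error. The orphan nuclear receptor gene Nr4a2 was at 152.5, 147.8, 71.5 and 203.8 CPM and Nr4a3 at 40.2, 55.5, 15.5 and 71.5 CPM. Homer1, a postsynaptic scaffold gene with an activity-induced short form, was at 791, 536, 407 and 880 CPM, just short of 2-fold lower in the aKO-labelled library. Jund was the 1 gene of the list above wild type there, at 12.1, 12.2, 16.3 and 16.9 CPM.

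The same genes in the other excitatory nuclei had medians of -0.18, -0.61 and 0.23 in the tKO-labelled, aKO-labelled and nKO-labelled libraries. There, all 14 lay below wild type in the aKO-labelled library and 3 were 2-fold lower, where 31 of all 9554 genes were 2-fold lower and 3717 lay above wild type, with a median of -0.04. The lower levels were thus seen in the other excitatory nuclei as well, and the difference between these and the members was not tested. In each of 6 alternative choices of members or scaling, 7 of the 14 genes were 2-fold lower in the aKO-labelled library. The nKO-labelled count did vary with them, from 0 with male nuclei only to 3 when the main cluster was taken without subset 9. The sources used here gave neither handling times nor the state of the animals before tissue collection.

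**Figure D5:**
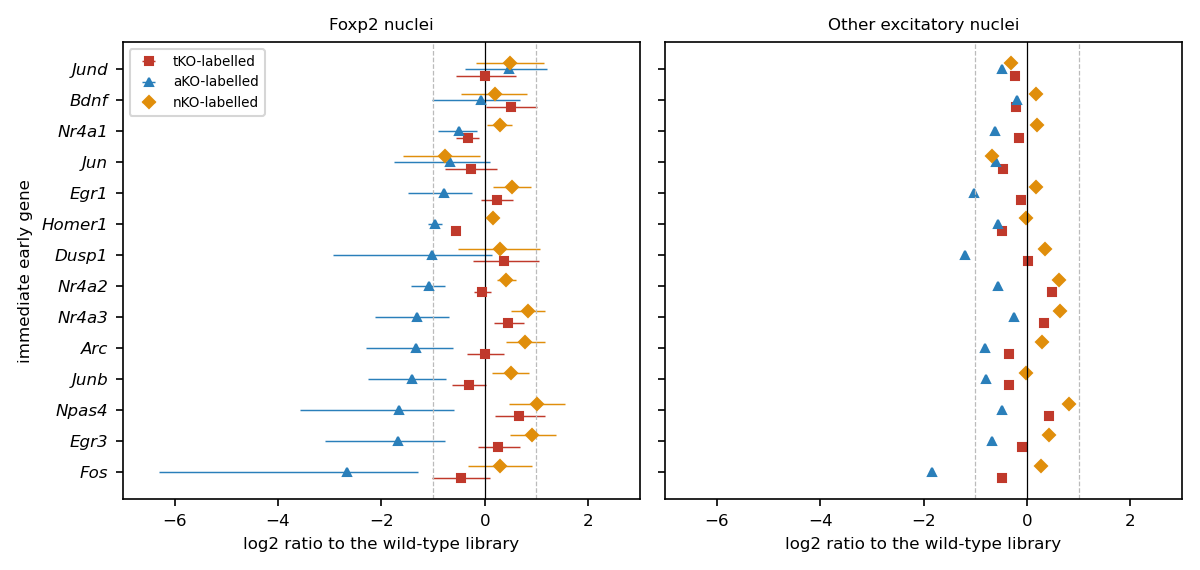
Log2 ratio to the wild-type library of 14 immediate early genes in the Foxp2 members (left, with exact 95% intervals for counting error) and in the other excitatory nuclei (right, no intervals); dashed lines mark 2-fold. On the left 13 of 14 genes lie below 0 in the aKO-labelled library and 13 of 14 above 0 in the nKO-labelled library.

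The promoters of 4 of the immediate early genes that were 2-fold lower in the aKO-labelled members are shown because these genes share the core of the cAMP response element, through which CREB acts. The letters TGACG on either strand (read as CGTCA on the other) stood in the 250 bases before the start of 9 of 11 listed genes with a promoter in the RefSeq table for GRCm38.p6, counted over 18 promoters, of which 9 held it. Of all 32851 promoters of the same length, 17.8% held it. The palindrome TGACGTCA, which holds the shorter motif on both strands, stood in 1.55% of all promoters and in 1 listed gene, Dusp1. A further motif searched, TATAAA on either strand, stood in 12.4% of all promoters and in those of Fos and Nr4a2. Arc, Egr1 and Egr3 were not in the table. A match is a description of letters and shows neither binding nor a cause. Each sequence is given 5′ to 3′ on the strand of its gene, with the letters that match these core motifs in capitals. The Fos promoter is chr12:85473640-85473889 on the plus strand, that of Nr4a3 chr4:48045055-48045304 on the plus strand, that of Npas4 chr19:4989972-4990221 on the minus strand and that of Dusp1 chr17:26508473-26508722 on the minus strand.
Fos: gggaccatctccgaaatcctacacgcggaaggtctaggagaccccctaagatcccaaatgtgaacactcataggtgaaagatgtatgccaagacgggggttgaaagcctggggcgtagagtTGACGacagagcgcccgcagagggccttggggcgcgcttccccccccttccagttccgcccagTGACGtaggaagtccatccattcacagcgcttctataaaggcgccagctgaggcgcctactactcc
Nr4a3: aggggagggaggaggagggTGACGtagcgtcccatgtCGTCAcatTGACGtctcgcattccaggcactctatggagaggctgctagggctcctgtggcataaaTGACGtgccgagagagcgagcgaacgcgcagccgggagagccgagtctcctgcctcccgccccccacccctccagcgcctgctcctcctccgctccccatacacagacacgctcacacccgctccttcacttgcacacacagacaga
Npas4: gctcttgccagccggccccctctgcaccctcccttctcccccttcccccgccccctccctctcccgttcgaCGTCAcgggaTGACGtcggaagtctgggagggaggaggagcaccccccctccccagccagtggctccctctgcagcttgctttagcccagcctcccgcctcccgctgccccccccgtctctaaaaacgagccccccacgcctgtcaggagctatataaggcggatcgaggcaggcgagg
Dusp1: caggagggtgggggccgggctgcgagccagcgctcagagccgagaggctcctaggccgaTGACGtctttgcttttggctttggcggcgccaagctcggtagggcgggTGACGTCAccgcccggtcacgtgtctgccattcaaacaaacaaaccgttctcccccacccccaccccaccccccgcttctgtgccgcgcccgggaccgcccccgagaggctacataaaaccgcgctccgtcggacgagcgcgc
The Nr4a3 promoter held 4 matches to the core, that of Dusp1 held 3, and those of Fos and Npas4 held 2 each.

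Among the layer 6 genes, Rprm, a cell cycle arrest gene used as a corticothalamic marker, was the one lower than wild type in all 3 knockout libraries by close to 2-fold. It had 106, 75, 18 and 34 UMIs, or 28.4, 14.1, 14.0 and 15.1 CPM, with log2 ratios of -1.0, -0.96 and -0.88. The wild-type members were high and the other 3 lay close together. With male nuclei only, Rprm had 29, 71, 6 and 17 UMIs in 121, 577, 71 and 106 members. Its tKO-labelled and nKO-labelled ratios were then less far below wild type. In the other excitatory nuclei Rprm was at 3.13 to 3.57 CPM. Tubb5, a tubulin gene, was at 34.6, 19.0, 16.3 and 14.7 CPM, and Uqcrfs1, a subunit of respiratory complex III, at 22.8, 12.04, 10.9 and 9.77 CPM. With male nuclei only Tubb5 had 37, 95, 12 and 13 UMIs, and its aKO-labelled ratio was then less far below wild type. Abhd17a, a depalmitoylase gene, was at 19.6, 9.97, 10.1 and 8.44 CPM, but with male nuclei only its tKO-labelled log2 ratio was -0.31 in place of -0.97 and its aKO-labelled ratio 0.21 in place of -0.87. In the same 4 libraries the other excitatory nuclei had 14.1 to 23.2 CPM of Tubb5 and 9.11 to 13.0 CPM of Abhd17a, with wild type highest for both. The 3 ratios of each gene share the wild-type library, so a chance value there enters all of them. Of all 9554 genes with at least 100 UMIs, 2618 lay below wild type in all 3 knockout libraries and 1984 above it. By 2-fold in each of the 3 libraries there were 3 below and 4 above. The genes named in this paragraph and the next were picked as extremes of these groups.

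On the other side, Glra3, a glycine receptor subunit gene, had 7, 69, 17 and 16 UMIs, and its log2 ratios were 2.62, 2.71 and 1.82 with lower counting limits of 1.67, 1.47 and 0.56. The wild-type value of 1.88 CPM was low beside the members of the other libraries, at 7.11 to 13.2 CPM, and beside wild-type other excitatory nuclei, at 10.2 CPM. Vav3, a guanine nucleotide exchange factor gene, was at 12.1, 24.1, 27.2 and 28.0 CPM. Its tKO-labelled log2 ratio of 0.98 was 0.31 without called doublets, and its aKO-labelled ratio of 1.18 was 0.21 with male nuclei only. Its ratios in the main cluster without subset 9, with 5 wild-type UMIs, were 2.21, 2.93 and 2.81. Qars, the glutaminyl-tRNA synthetase gene, was at 4.83, 9.97, 11.7 and 13.8 CPM. Grik1, a kainate receptor gene, was at 13.7, 43.8, 45.1 and 28.9 CPM, but a single nucleus carried 56.9% of its UMIs in the aKO-labelled and 40.0% in the nKO-labelled library. With male nuclei only its aKO-labelled ratio was -0.71, in place of 1.72. The tKO-labelled log2 ratio of 1.66 was 0.58 without called doublets and 0.33 in the main cluster without subset 9, where 5 UMIs each were left in the wild-type and tKO-labelled members.

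The highest ratios belonged to noncoding transcripts. Gm17167 had 0 UMIs in the wild-type members, 443 in the tKO-labelled, 1 in the aKO-labelled and 63 in the nKO-labelled members. Against a floor of 3 counts in the wild-type sum it was at least 104-fold higher in the tKO-labelled and at least 34.8-fold higher in the nKO-labelled library. It stood at 0.228, 61.7, 0.111 and 25.2 CPM in the other excitatory nuclei, so the difference was there outside the members as well. Gm10635, the leading gene of subset 9, was found in 3.70% of the tKO-labelled members, and 1 nucleus carried 18.8% of its UMIs there. It had 1, 191, 0 and 2 UMIs in the 4 libraries, with a counting interval of 4.57 to 12.4 for its log2 ratio of 6.07 in the tKO-labelled members. Rarb (2.95, 31.6, 3.89 and 3.55 CPM), a retinoic acid receptor gene, and Cpa6 (5.63, 43.1, 6.99 and 4.00 CPM) were high in the same library. In the main cluster without subset 9, a choice that also left out the called doublets and kept 327 of the 621 tKO-labelled members, 7 UMIs of Gm10635 were left in that library and 1 in wild type, the log2 ratio of Cpa6 was 0.75 in place of 2.87, and that of Rarb 2.27 in place of 3.30. Without the called doublets alone, Rarb was at 2.09 and Cpa6 at 3.34. In the main cluster without subset 9 and called doublets, 7823 genes had enough UMIs and 54, in place of 114, passed 2-fold in the tKO-labelled members, 23 of them in both sets. Since 71 passed without the called doublets alone, the lower count is not that of subset 9 by itself. The 6 lowest in the tKO-labelled members were Gm15584, Gm15398, Nppc, Sdhd, 4930480K15Rik and Rtl1. Their log2 ratios were -1.92, -1.73, -1.67, -1.64, -1.62 and -1.51. In the other excitatory nuclei all 6 were also below wild type, from -1.28 to -0.524.

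Among the genes with levels given above, Epha6 and Gria1 were higher in the tKO-labelled and aKO-labelled members than in wild type. Ndst4, an N-deacetylase and N-sulphotransferase of heparan sulphate, was at 16.6, 51.5, 61.4 and 11.1 CPM, and Nectin3, an adhesion gene of CA3, at 9.65, 25.6, 37.3 and 4.44 CPM. These 4 genes were chosen after their values were seen. The called doublets were 31.6% and 11.4% of the members in the tKO-labelled and aKO-labelled libraries, against 8.28% and 4.78% in the others; their part in the result was not tested.

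Myelin and choroid plexus transcripts also moved with the libraries. Mbp, a myelin protein gene, was at 76.9, 105.7, 30.3 and 52.8 CPM in the members and at 79.0, 102.6, 63.9 and 71.6 CPM in the other excitatory nuclei. Mag, a myelin adhesion gene, was at 6.70, 13.4, 1.55 and 0.888 CPM in the members against 5.71, 10.9, 1.87 and 1.78. Both were highest in the tKO-labelled library and low in the aKO-labelled and nKO-labelled libraries, in the members and in the other excitatory nuclei. Mobp and Mog, 2 further oligodendrocyte genes, had no UMI in the nKO-labelled members. Mobp was at least 9.86-fold lower and Mog at least 5.63-fold lower there. Prr5l, Bcas1 and Ugt8a had no UMI in the aKO-labelled members, which made them at least 7.13-fold, 4.60-fold and 3.68-fold lower. The wild-type sums behind these bounds depended on which members were kept. In the main cluster without subset 9 and called doublets, the wild-type members had 1 UMI of Prr5l in place of 62, 1 of Bcas1 in place of 40, 5 of Ugt8a in place of 32, 6 of Mobp in place of 49 and 1 of Mog in place of 28. With sums that low beside 0, no difference was detectable there for Prr5l, Bcas1 and Mog. Ttr, the choroid plexus transport protein gene, had 1130, 580, 46 and 0 UMIs, and a single nucleus carried 57.7%, 45.3% and 50.0% of the first 3 sums. Against a floor of 3 counts Ttr was at least 227-fold lower in the nKO-labelled members. Without called doublets the sums were 37, 19, 44 and 0 UMIs, and the aKO-labelled log2 ratio was 1.93 in place of -3.05; in the main cluster without subset 9 it was 2.23. Folr1, another choroid plexus gene, was at 3.48 CPM in wild type, 0.564 CPM in the tKO-labelled library and 0 in the others. Mbp, Mag, Mobp, Mog, Prr5l, Bcas1, Ugt8a and Ttr were among the 149 genes counted as lower in the aKO-labelled members, and Mag, Mobp, Mog, Prr5l, Ugt8a and Ttr among the 88 in the nKO-labelled members. Folr1 had too few UMIs to be counted.

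In the remaining lists few genes passed 2-fold, and the list medians lay between -0.19 and 0.19 in every knockout library. Chrna4, a nicotinic receptor gene (21.2, 16.6, 9.33 and 16.4 CPM), and Npy1r, a neuropeptide Y receptor gene (7.77, 14.1, 2.33 and 6.22 CPM), were 2-fold lower in the aKO-labelled members, and Htr4 (34.9, 44.0, 70.7 and 43.5 CPM) was 2-fold higher there. The aKO-labelled value of Npy1r rests on few UMIs and carries wide counting error. The dopamine receptor gene Drd1 was at 6.43, 11.9, 12.4 and 14.7 CPM, 2-fold higher in the nKO-labelled members. The potassium channel gene Kcnc2 was at 93.0, 127.9, 200.5 and 72.4 CPM and passed 2-fold in the aKO-labelled library. Sema3d was at 38.1, 18.8, 19.4 and 22.6 CPM, 2-fold lower in the tKO-labelled library. The heparan sulphate gene Gpc4 was 2-fold lower in the aKO-labelled members, at a log2 ratio of -1.31. In the list of 14 transcription factors, the 1 gene past 2-fold was Cux2, higher in the tKO-labelled members at a log2 ratio of 1.7. The corticothalamic regulators Tle4, Sox5, Zfpm2, Tbr1 and Fezf2 stayed within 2-fold of wild type in all 3 knockout libraries, with log2 ratios from -0.46 to 0.39.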

How the data were processed

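The files were gene by barcode matrices of UMI counts for 4 libraries, 1 per genotype, deposited by the authors with no normalization. The kit was a 10x multiome kit, per the labels' protocols, and the RNA counts were used here. The submitters' processing notes name Cell Ranger ARC 2.0.0 and mm10, without their role. Strand use in counting and filters on barcodes were not given in the sources used here. Genes were matched by symbol, 20211 of them listed in all 4 libraries. The members and gene lists were chosen with earlier results of these data known; a few listed genes are not reported here.

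UMIs were summed over the members of a library and divided by their total. Ratios had a pseudocount of 1 UMI and needed at least 100 UMIs over the 4 libraries; intervals were exact 95% Poisson, binomial or conditional binomial and cover counting error only. No p-value was computed, as each genotype had 1 library. Genes open to naming were those of the lists and the 20 outside the rule with the highest lowest ratio to other excitatory nuclei. To these came the 6 highest and 6 lowest per knockout library (sex-linked and mitochondrial genes left out). The last were the 8 per direction on the same side of wild type in all 3. Not all of them are named in the text. Other excitatory nuclei had at least 1 Slc17a7 UMI and at most 1 Gad1 and Gad2 UMI and were not members. Background nuclei were inhibitory (at least 2 Gad1 and Gad2 UMIs, no Slc17a7 UMI) or oligodendrocytes. Doublets were called with Scrublet in scanpy 1.11.5 at 0.8% per 1000 barcodes and were kept in the main values. Clustering (Leiden) used 2000 variable genes, 30 components, 15 neighbours and a resolution of 1, or 0.5 for the members alone, without called doublets. Promoters were those of RefSeq for GRCm38.p6. The scripts were tested on simulated data. Alternatives were other limits for Foxp2, partner genes and UMIs, thinning, no called doublets, male nuclei only (a Y-linked UMI and no Xist UMI), a mean over nuclei, median-of-ratios size factors and, chosen after seeing the data, the main cluster without subset 9, which also left out called doublets.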

Additional observations from a re-analysis of the deposited data

How the results depend on the processing

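The members' share of barcodes in the wild-type, tKO-labelled, aKO-labelled and nKO-labelled libraries was 2.70%, 1.47%, 1.04% and 1.88% with at least 3 Foxp2 UMIs, 2.45%, 1.11%, 0.722% and 1.77% with 4 partner genes, and 0.325%, 0.453%, 0.217% and 0.321% after thinning; without called doublets the tKO-labelled share was 1.79%. Genes past 2-fold in the tKO-labelled members were 71 without called doublets, 54 in the main cluster without subset 9 and without called doublets (chosen after seeing the data), 256 with at least 50 UMIs and 57 with at least 200. Those in the aKO-labelled members were 519 with at least 50 UMIs and 105 with at least 200. Those in the nKO-labelled members were 77 without called doublets, 186 with male nuclei only, 78 in the main cluster without subset 9, 309 with at least 50 UMIs and 45 with at least 200. Of the main calls, 39 of 114, 104 of 245 and 56 of 122 were also called without called doublets, and 51, 92 and 39 with male nuclei only. With male nuclei only the tKO-labelled count was 131 and the aKO-labelled count 349. The genes with enough UMIs, 9554 in the main values, were 8532 without called doublets and 8045 with male nuclei only. They were 7823 in the main cluster without subset 9, 11478 with at least 50 UMIs and 7232 with at least 200. The counts under these settings thus have different bases. The aKO-labelled count was 179 without called doublets and 164 in the main cluster without subset 9, where 64 of the 245 main calls were called again. Immediate early genes 2-fold higher in the nKO-labelled members, 1 in the main values, were 2 with at least 3 Foxp2 UMIs, 0 with male nuclei only, 3 in the main cluster without subset 9 and 3 by the mean over nuclei. The Mgll ratios moved by less than their counting intervals under all alternatives run.

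Among the ratios past 2-fold that the naming rule chose, those that changed sign were 9530026P05Rik (aKO-labelled -0.56 with 3 Foxp2 UMIs and -0.19 in the main cluster; nKO-labelled -0.32, -0.25 and, with male nuclei only, -0.95), Gm32647 (aKO-labelled -1.43 with male nuclei only, -2.46 in the main cluster; in the tKO-labelled library, which the rule did not choose, 58 wild-type and 320 tKO UMIs became 57 and 13 without called doublets) and, with male nuclei only, Erbb4 (-2.93) and Grik1 (-0.71) in the aKO-labelled library. In the main cluster without subset 9, the computed values for Prr5l (0.81 in the aKO-labelled, 0.75 in the nKO-labelled library) and Bcas1 (0.81 in the aKO-labelled library) come from 1 wild-type UMI beside 0 or 1 and the pseudocount, so no change of direction was measured. The aKO-labelled ratio of Ttr was 1.93 without called doublets and 2.23 in the main cluster, and the tKO-labelled ratio of Apoe was 0.18 with male nuclei only and 0.11 in the main cluster. The cause of the other changes was not tested. No paired analysis was possible because each genotype had 1 library. Depth limited the aKO-labelled members most: with 149 nuclei, a gene at 100 UMIs over all members had few UMIs there.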
